A study of Mus musculus with 85 samples.

Results

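The genes described here are 28 genes of cholesterol synthesis and of its control by SREBP2, found by symbol among the 23608 genes of the expression tables. All 28 were present. By role, 2 genes handle acetyl-CoA ahead of the mevalonate steps, Acly, which supplies it, and Acat2, which uses it. Another 7 belong to the mevalonate to farnesyl steps, 3 to squalene and lanosterol formation and 9 to the steps from lanosterol to cholesterol. The others are 6 genes that control SREBP2 and the sterol carrier Stard4.

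Cells make cholesterol from acetyl-CoA by way of mevalonate, farnesyl pyrophosphate, squalene and lanosterol. When membranes of the endoplasmic reticulum are low in sterol, the escort protein SCAP carries SREBP2 to the Golgi, where the site-1 and site-2 proteases (Mbtps1 and Mbtps2) release its transcription factor domain. INSIG1 and INSIG2 hold SCAP back when sterols are plentiful, and Insig1 is itself an SREBP2 target. The liver is a main site of cholesterol synthesis, and macrophages take up and export cholesterol in addition to making it.

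The study asked how natural genetic variation and the cell's surroundings shape the liver's own macrophages, called Kupffer cells. RNA-seq had been run on 85 libraries in 30 groups, 69 from 3 inbred mouse strains (C57BL/6J, BALB/cJ and A/J) and 16 from CB6F1/J, the first cross of C57BL/6J males with BALB/cJ females. Kupffer cells of untreated mice (A/J 2, BALB/cJ 2, C57BL/6J 2 and CB6F1/J 4 libraries), liver sinusoidal endothelial cells (LSECs, 4 in each inbred strain) and hepatic stellate cells (4, 4 and 3) had been sorted from digested liver, and hepatocytes (2, 2 and 3) had been purified on Percoll. Kupffer cells were gated as CD45+ F4/80hi CD11b intermediate and CD146- cells, LSECs as CD45- CD146+ cells, and stellate cells by their retinoid autofluorescence.

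Kupffer cells were also taken 2 h after an intraperitoneal dose of 0.1 mg/kg LPS, the endotoxin of Gram-negative bacteria (BALB/cJ 2, C57BL/6J 2 and CB6F1/J 5). Per the methods these were male mice fasted overnight, as were the uninjected mice of that experiment. The labels do not say whether the untreated Kupffer cell libraries came from those fasted mice, so fasting and LPS may differ together. Flavopiridol, which stops transcription, was used per the methods in the perfusion and digestion of all liver cells. The AMLN diet, rich in fat, fructose and cholesterol, was given for 30 weeks before Kupffer cells were taken (A/J 4, BALB/cJ 3 and C57BL/6J 4), and the C57BL/6 mice of the diet work came from a laboratory colony although the label reads C57BL/6J. Kupffer cells grown from lineage-negative marrow in busulfan-conditioned NSG hosts, which lack lymphocytes, gave 3 libraries for each donor strain (CB6F1/J, BALB/cJ and C57BL/6J). Bone marrow-derived macrophages (BMDMs), cultured in L929-conditioned medium, had 2 libraries for each of the 4 strains with PBS or with 100 ng/ml Kdo2-lipid A (KLA), a pure TLR4 ligand, for 2 h.

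Exon reads per library ran from 5.25 M to 42.78 M (M, megareads) in the inbred strains. In the hybrids, taken as the mean over both parental genomes, they ran from 50.14 M to 125.29 M. Kupffer cell markers summed to 9082 to 20190 TPM (a level scaled for gene length and library size) in all Kupffer cell groups, and hepatocyte markers to 82450 to 139700 TPM in hepatocytes, so both labels fitted their markers. Other cells were also present. Hepatocyte markers summed to 6820 to 8488 TPM in 3 LSEC libraries (A/J replicates 1 and 2 and BALB/cJ replicate 1) and to at most 2172 TPM in the other 9. Kupffer cell markers reached 2333 to 7187 TPM in A/J stellate cells, 1408 to 1914 TPM in C57BL/6J and 203.2 to 827.8 TPM in BALB/cJ.

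Differences were tested with edgeR's quasi-likelihood test on counts and are given as log2 differences ± SE with the p-value adjusted over all genes tested. A gene was tested if its mean reached more than 8 TPM in at least 1 group, and it was called if its adjusted p was under 0.05 and it changed more than 2-fold. In these bulk libraries fewer cells of a type and less RNA per cell cannot be told apart. The study counts mice for the LPS libraries of the inbred strains, and its BMDMs came from bones of 2 mice per group. For the other groups the sources count samples, and there a p-value measures only the spread between libraries, which may be technical.

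The promoters of 4 members whose calls recur below are shown because the same letters that SREBP2 and its partner NF-Y read can be searched in them. Windows of 300 bases, from 250 bases before the start site, were taken from RefSeq (build GRCm38.p6), and 24 of the 28 members had one. Capitals mark TCACNCCAC, a sterol regulatory element, and CCAAT, the NF-Y motif, on either strand.
Hmgcs1, chr13:119690101-119690400, + strand: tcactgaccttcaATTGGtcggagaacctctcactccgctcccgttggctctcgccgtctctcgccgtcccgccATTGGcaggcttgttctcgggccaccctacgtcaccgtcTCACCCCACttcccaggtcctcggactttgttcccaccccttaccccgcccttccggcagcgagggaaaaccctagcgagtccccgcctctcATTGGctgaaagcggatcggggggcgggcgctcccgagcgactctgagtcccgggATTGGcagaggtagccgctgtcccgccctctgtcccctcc
Insig1, chr5:28071162-28071461, + strand: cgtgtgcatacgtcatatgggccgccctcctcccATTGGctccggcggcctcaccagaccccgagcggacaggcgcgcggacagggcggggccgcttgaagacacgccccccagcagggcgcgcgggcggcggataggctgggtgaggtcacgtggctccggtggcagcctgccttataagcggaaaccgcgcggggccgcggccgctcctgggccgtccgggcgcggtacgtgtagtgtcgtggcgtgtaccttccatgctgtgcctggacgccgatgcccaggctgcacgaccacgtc
Mvd, chr8:122443373-122443672, - strand: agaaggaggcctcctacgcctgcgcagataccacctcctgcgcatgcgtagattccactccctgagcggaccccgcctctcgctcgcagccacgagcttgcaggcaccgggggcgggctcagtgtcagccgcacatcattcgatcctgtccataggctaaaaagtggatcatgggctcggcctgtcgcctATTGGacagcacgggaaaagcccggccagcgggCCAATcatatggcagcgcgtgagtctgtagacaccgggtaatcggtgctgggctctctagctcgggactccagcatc
Cyp51, chr5:4104648-4104947, - strand: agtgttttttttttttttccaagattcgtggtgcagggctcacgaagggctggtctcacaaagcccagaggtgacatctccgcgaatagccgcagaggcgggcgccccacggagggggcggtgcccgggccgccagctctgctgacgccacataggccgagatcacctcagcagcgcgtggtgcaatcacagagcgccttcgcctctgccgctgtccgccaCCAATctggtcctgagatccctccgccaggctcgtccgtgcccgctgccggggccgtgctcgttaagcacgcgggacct

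TCACNCCAC stood in 1 of the 24 members, Hmgcs1, 137 bases before the start site, and in 1.44% of all 27025 genes with a window. CCAAT stood in 20 of the 24 members and in 41.1% of all genes. The related letters TCACNCGAC stood in none of the members and in 0.366% of all genes. A match is a description of the letters, and no match says only that these letters are absent from this window.

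Across cell types, hepatocytes and BMDMs held most of the pathway at higher levels than the sorted non-parenchymal cells. Of the 28 members, 12 had their highest median TPM in hepatocytes, 9 in BMDMs, 4 in LSECs, 2 in Kupffer cells and 1 in stellate cells. A median above 8 TPM was reached by 25 members in BMDMs, 23 in hepatocytes, 18 in Kupffer cells and 17 each in LSECs and stellate cells. BMDM libraries were in a separate culture experiment and were not tested against liver cells.

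**Figure D1:**
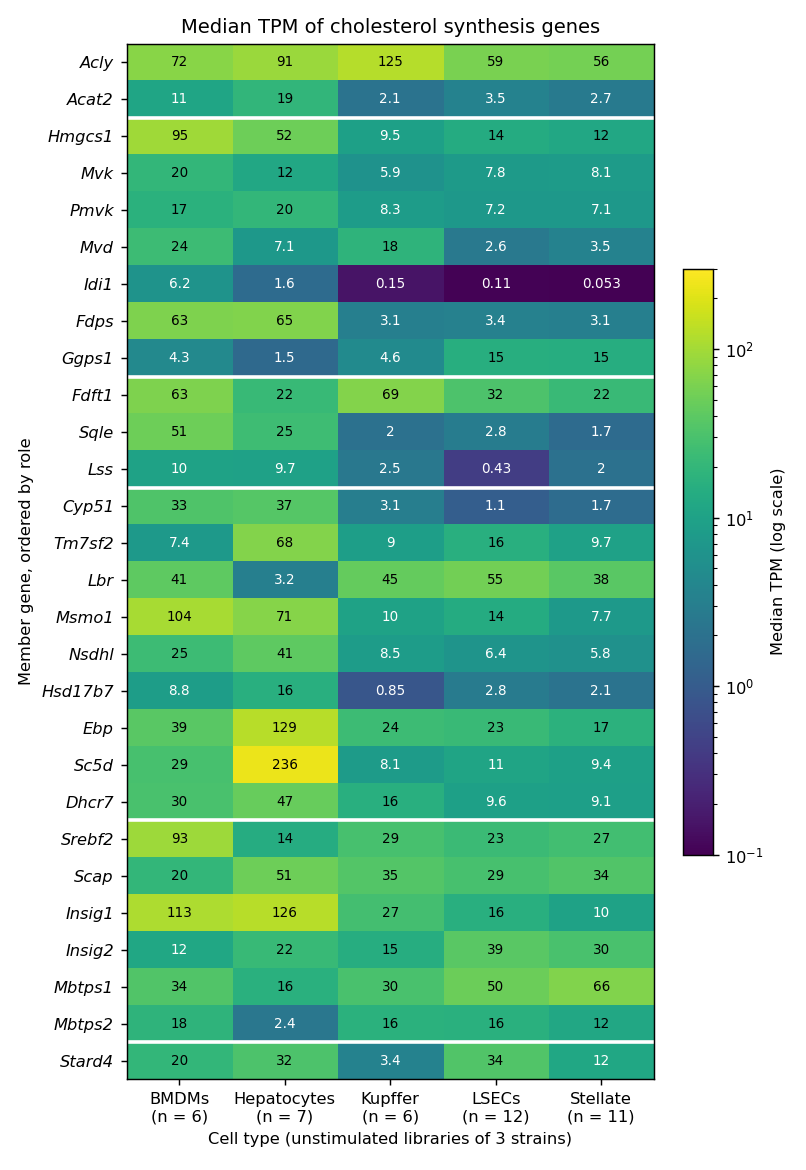
Median TPM of the 28 members (rows, ordered by role, white lines between roles) in the unstimulated libraries of each cell type (columns, n = libraries). Colour is TPM on a log scale and the printed number is the median. Sc5d in hepatocytes (236.1 TPM) is the highest value and Idi1 is lowest in 3 of the 5 cell types.

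Against Kupffer cells, 21 of 27 tested members were called in hepatocytes, 19 higher and 2 lower, beside 58.9% of all genes tested. The members' median log2 difference was 3.22 and that of all genes 0.009. Against LSECs 24 were called (21 higher, 3 lower, beside 59.9%) and against stellate cells 25 (22 higher, 3 lower, beside 62.1%). Since most genes were called in each comparison, the called share of members is read with the median, which was 3.37 against LSECs and 3.55 against stellate cells, beside −0.075 and −0.289 for all genes.

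These values depend on the scale. Over all genes tested the median log2 ratio of mean TPM was −1.01 against Kupffer cells, −1.43 against LSECs and −1.53 against stellate cells, so fitted differences are relative to that shift. In TPM itself 16 members were over 2-fold higher and 5 over 2-fold lower in hepatocytes than in Kupffer cells, 16 and 4 against LSECs, and 17 and 4 against stellate cells. The members' median log2 ratio of TPM was 2.09, 1.94 and 2.27.

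Sc5d, the desaturase that acts late in the pathway, ranged over 92.7 to 291 TPM, median 236, in 7 hepatocyte libraries and over 4.79 to 10.8 TPM, median 8.12, in 6 Kupffer cell libraries. The ranges did not overlap (log2 difference 5.80 ± 0.31, adjusted p = 5.99e-18). Fdps, which makes farnesyl pyrophosphate, ranged over 39.5 to 75.2 TPM, median 65.1, in hepatocytes and 2.46 to 4.48 TPM, median 3.13, in Kupffer cells (log2 difference 5.37 ± 0.20, adjusted p = 1.84e-22).

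Hsd17b7 (5.67 ± 0.40), Cyp51 (4.61 ± 0.30), Sqle (4.58 ± 0.34), Acat2 (4.18 ± 0.20) and Msmo1 (4.08 ± 0.23) were also higher in hepatocytes by these log2 differences. Hmgcs1, which makes HMG-CoA, had 26.5 to 97.9 TPM, median 51.6, in hepatocytes and 7.93 to 11.1 TPM, median 9.48, in Kupffer cells (log2 difference 3.65 ± 0.24, adjusted p = 1.14e-15). Idi1, which interconverts the isoprenoid isomers, was low in all 4 liver cell types, with a median of 1.63 TPM in hepatocytes and 0.153 TPM in Kupffer cells, and was not tested.

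The control genes differed among themselves. Insig1 ranged over 97.6 to 186 TPM, median 126, in hepatocytes and 20.2 to 28.9 TPM, median 27.1, in Kupffer cells (log2 difference 3.39 ± 0.18, adjusted p = 4.03e-18). Scap (1.65 ± 0.10) and Insig2 (1.90 ± 0.26) were called higher too, with log2 ratios of mean TPM of 0.56 and 0.97. Srebf2 itself had 10.9 to 16.3 TPM, median 14.1, in hepatocytes and 26.9 to 41.4 TPM, median 29.3, in Kupffer cells, and its fitted log2 difference was -0.11 ± 0.11, adjusted p = 0.359. In TPM Srebf2 was lower in hepatocytes without overlap. Against LSECs and stellate cells its direction turned with the scale, from fitted differences of 0.64 ± 0.09 and 0.35 ± 0.10 to log2 ratios of TPM of −0.78 and −0.90, and Insig2 turned likewise, from 0.71 ± 0.21 and 1.08 ± 0.21 to −0.58 and −0.07.

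Lbr and Mbtps2 were called lower in hepatocytes against all 3 other cell types. Lbr, a reductase of the inner nuclear membrane that shares its sterol step with Tm7sf2, had 2.37 to 4.03 TPM, median 3.16, in hepatocytes and 36.5 to 56.0 TPM, median 45.4, in Kupffer cells (log2 difference -2.79 ± 0.10, adjusted p = 3.51e-23). Tm7sf2 lay on the other side, with 46.0 to 89.8 TPM, median 68.5, in hepatocytes and 7.44 to 12.1 TPM, median 8.98, in Kupffer cells (log2 difference 3.95 ± 0.18, adjusted p = 7.74e-20). Its exons overlap those of Vps51 on the same strand. Ggps1, the branch to geranylgeranyl groups, was called lower in hepatocytes against LSECs (-2.005 ± 0.11) and stellate cells (-2.15 ± 0.11).

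Stard4, which carries sterol between membranes, had 29.6 to 44.7 TPM, median 34.1, in LSECs and 23.6 to 41.6 TPM, median 32.2, in hepatocytes. Both ranges lay above that of Kupffer cells, 2.73 to 8.45 TPM, median 3.45. Against LSECs Stard4 was higher in hepatocytes on the fitted scale (adjusted p = 3.82e-09) and not in TPM (log2 ratio −0.11). Acly, the source of cytosolic acetyl-CoA, had its highest median, 125 TPM, in Kupffer cells, and its direction turned too, from a fitted hepatocyte minus Kupffer cell difference of 0.51 ± 0.16, adjusted p = 0.00451, to a log2 ratio of TPM of −0.56. In hepatocytes 10 of 11 tested genes of the SREBP1 and fatty acid list were called higher than in each of the other 3 cell types, and Scd2 was called lower. Of all genes tested 29.9%, 28.8% and 26% were called higher against Kupffer cells, LSECs and stellate cells.

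Between strains, hepatocytes showed the most called members. A/J hepatocytes held higher levels than BALB/cJ of Hmgcs1, Pmvk, Sqle and 5 genes of the lanosterol to cholesterol steps, and lower Insig2. Of 24 tested members 9 were called, 8 higher and 1 lower in A/J, beside 5.25% of all genes tested, and the median log2 difference was 0.451 against −0.009 for all genes. The other 15, among them Acly (-0.29 ± 0.36, adjusted p = 0.618) and Dhcr7 (0.27 ± 0.21, adjusted p = 0.402), were not called. Without BALB/cJ replicate 2 the count was 1.

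Hmgcs1 was at 80.9 and 97.9 TPM in A/J hepatocytes, 33.2 and 26.5 TPM in BALB/cJ and 34.1, 51.6 and 70.2 TPM in C57BL/6J. A/J libraries were the highest and BALB/cJ the lowest, with no overlap between any pair of strains. The log2 difference between A/J and BALB/cJ was 1.68 ± 0.18, adjusted p = 0.00233. Sqle, the oxygen-dependent epoxidase of squalene, was at 30.2 and 45.9 TPM in A/J, 13.0 and 7.78 TPM in BALB/cJ and 24.7, 18.8 and 28.1 TPM in C57BL/6J. BALB/cJ libraries were the lowest and the strains did not overlap (A/J minus BALB/cJ 1.97 ± 0.34, adjusted p = 0.0275).

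Cyp51, the lanosterol demethylase, was at 36.8 and 58.2 TPM in A/J, 21.2 and 14.4 TPM in BALB/cJ and 30.4, 37.2 and 48.7 TPM in C57BL/6J. BALB/cJ lay below the other strains, which overlapped each other (A/J minus BALB/cJ 1.51 ± 0.31, adjusted p = 0.0408). Its exons overlap those of Akap9 on the opposite strand. Msmo1 and Nsdhl, which act further along the pathway, followed the same order of strains. Msmo1 was at 102 and 164 TPM in A/J, 56.3 and 35.6 TPM in BALB/cJ and 70.8, 62.0 and 81.2 TPM in C57BL/6J (A/J minus BALB/cJ 1.63 ± 0.35, adjusted p = 0.0495).

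Nsdhl was at 40.0 and 55.3 TPM in A/J, 21.1 and 11.6 TPM in BALB/cJ and 43.3, 40.6 and 45.2 TPM in C57BL/6J (A/J minus BALB/cJ 1.64 ± 0.34, adjusted p = 0.0442). Hsd17b7, the ketosteroid reductase, was at 28.9 and 42.2 TPM in A/J, 11.4 and 13.4 TPM in BALB/cJ and 11.8, 15.5 and 16.9 TPM in C57BL/6J. It was high in A/J alone, and BALB/cJ and C57BL/6J overlapped (A/J minus BALB/cJ 1.63 ± 0.22, adjusted p = 0.0075). Sc5d was at 266 and 228 TPM in A/J, 117 and 92.7 TPM in BALB/cJ and 291, 251 and 236 TPM in C57BL/6J (A/J minus BALB/cJ 1.32 ± 0.16, adjusted p = 0.00392). Pmvk was called at 1.07 ± 0.22, adjusted p = 0.0218.

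Insig2 ran the other way. It was at 22.0 and 22.2 TPM in A/J, 42.7 and 52.2 TPM in BALB/cJ and 11.3, 13.3 and 22.1 TPM in C57BL/6J. BALB/cJ libraries were the highest and overlapped neither strain (A/J minus BALB/cJ -1.01 ± 0.15, adjusted p = 0.00742, and BALB/cJ minus C57BL/6J 1.48 ± 0.25, adjusted p = 0.00932). Insig1 was at 130.5 and 106 TPM in A/J, 186 and 126 TPM in BALB/cJ and 129.9, 126 and 97.6 TPM in C57BL/6J, and the strains overlapped.

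Srebf2 was at 15.6 and 16.3 TPM in A/J, 14.1 and 11.1 TPM in BALB/cJ and 14.6, 10.9 and 12.3 TPM in C57BL/6J, with a difference between A/J and BALB/cJ of 0.43 ± 0.16, adjusted p = 0.111. Stard4 was at 32.2 and 38.1 TPM in A/J, 28.6 and 26.5 TPM in BALB/cJ and 23.6, 38.9 and 41.6 TPM in C57BL/6J (A/J minus BALB/cJ 0.45 ± 0.15, adjusted p = 0.0867). Neither passed the test between any strains. Idi1 was at 1.91 and 4.08 TPM in A/J, 1.31 and 0.985 TPM in BALB/cJ and 1.63, 1.36 and 2.09 TPM in C57BL/6J and was not tested.

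**Figure D2:**
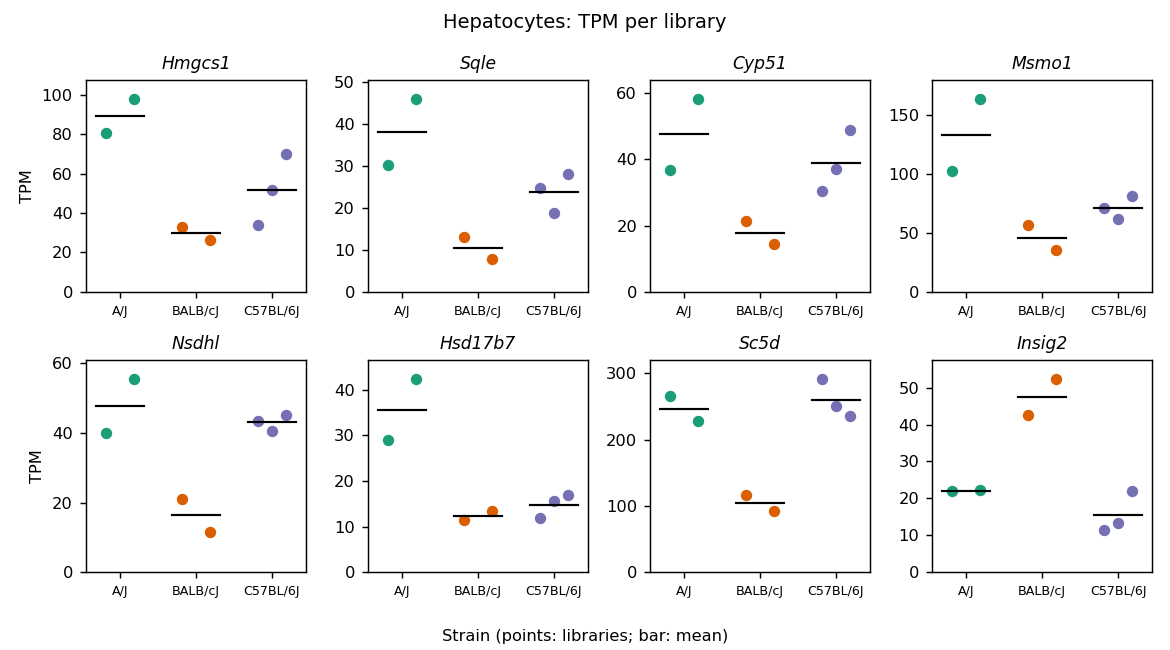
TPM (vertical axis, from 0) of 8 members in each hepatocyte library (points) of each inbred strain, with the group mean as a bar. BALB/cJ libraries are the lowest for Hmgcs1, Sqle, Cyp51, Msmo1, Nsdhl and Sc5d and the highest for Insig2.

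Between BALB/cJ and C57BL/6J hepatocytes 5 of 24 members were called, 1 higher and 4 lower in BALB/cJ, beside 8.85% of all genes tested. Those lower were Nsdhl (-1.52 ± 0.25, adjusted p = 0.00837), Sc5d (-1.44 ± 0.19, adjusted p = 0.00407), Sqle (-1.32 ± 0.26, adjusted p = 0.0157) and Cyp51 (-1.24 ± 0.23, adjusted p = 0.0129). The members' median was −0.161 against 0.001 for all genes, and the count was 2 without BALB/cJ replicate 2. Between A/J and C57BL/6J 2 of 24 members were called higher in A/J, beside 2.87% of all genes. These were Hsd17b7 (1.25 ± 0.21, adjusted p = 0.0313) and Mvd (1.21 ± 0.22, adjusted p = 0.0383), the decarboxylase that ends the mevalonate steps, and the count was 0 without A/J replicate 2 or C57BL/6J replicate 2.

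Outside the members, Scd1, the stearoyl-CoA desaturase, was called higher in hepatocytes of A/J against BALB/cJ, and so was Npc1, which exports cholesterol from lysosomes. Of 7 immediate-early genes, which respond within minutes to handling of cells, 6 were called lower, beside 4.89% of all genes, in BALB/cJ hepatocytes when set against C57BL/6J. Their summed TPM was 383.2 and 200.2 in BALB/cJ, 530.6 and 898.2 in A/J and 652.6 to 1105 in C57BL/6J, and its part in the members' differences was not tested.

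In BMDMs, A/J cells held lower levels of most of the pathway than BALB/cJ or C57BL/6J cells, by less than 2-fold for most members. Against BALB/cJ 18 of 26 tested members passed the test at any fold, 17 lower and 1 higher in A/J, beside 45.1% of all genes tested, and 2 were called beside 4.35%. Against C57BL/6J 19 of 25 passed, 17 lower and 2 higher, beside 51.3%, and 1 was called beside 5.54%. The medians were −0.49 and −0.41 against −0.002 and 0.011 for all genes.

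Mvd was at 11.6 and 10.4 TPM in A/J, 24.1 and 28.7 TPM in BALB/cJ and 24.8 and 27.2 TPM in C57BL/6J. A/J lay below the other strains, which overlapped (A/J minus BALB/cJ -1.35 ± 0.12, adjusted p = 2.15e-05, and A/J minus C57BL/6J -1.33 ± 0.12, adjusted p = 3.26e-07). Insig1 was at 83.8 and 76.2 TPM in A/J, 145 and 169 TPM in BALB/cJ and 101 and 125 TPM in C57BL/6J. The 3 strains did not overlap, and A/J was lowest (A/J minus BALB/cJ -1.05 ± 0.09, adjusted p = 2.32e-05).

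Hmgcs1 was at 64.1 and 57.8 TPM in A/J, 107 and 108 TPM in BALB/cJ and 88.0 and 102 TPM in C57BL/6J (A/J minus BALB/cJ -0.90 ± 0.08, adjusted p = 2.23e-05). Cyp51 was at 24.1 and 23.1 TPM in A/J, 32.3 and 33.9 TPM in BALB/cJ and 37.4 and 40.3 TPM in C57BL/6J (A/J minus C57BL/6J -0.80 ± 0.08, adjusted p = 1.24e-06). Sqle was at 43.5 and 41.7 TPM in A/J, 48.5 and 52.7 TPM in BALB/cJ and 54.9 and 60.0 TPM in C57BL/6J (A/J minus C57BL/6J -0.52 ± 0.08, adjusted p = 9.55e-05). In all 3 genes both A/J libraries lay below every library of the other strains.

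Srebf2 was at 88.8 and 83.1 TPM in A/J, 87.0 and 96.3 TPM in BALB/cJ and 122 and 119.7 TPM in C57BL/6J. A/J lay under C57BL/6J (-0.58 ± 0.08, adjusted p = 2.52e-05) and overlapped BALB/cJ (-0.17 ± 0.08, adjusted p = 0.114). Stard4 was at 19.4 and 19.1 TPM in A/J, 20.4 and 18.7 TPM in BALB/cJ and 20.8 and 23.6 TPM in C57BL/6J (A/J minus C57BL/6J -0.29 ± 0.08, adjusted p = 0.00863). Insig2 was at 11.2 and 13.1 TPM in A/J, 13.9 and 12.5 TPM in BALB/cJ and 9.48 and 10.5 TPM in C57BL/6J, and the A/J comparisons did not pass.

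Lbr was the member that rose in A/J in both comparisons and was at 63.9 and 64.3 TPM in A/J, 40.0 and 40.7 TPM in BALB/cJ and 33.8 and 41.2 TPM in C57BL/6J (A/J minus C57BL/6J 0.69 ± 0.09, adjusted p = 2.84e-05). Idi1 was at 5.05 and 4.38 TPM in A/J, 6.19 and 6.12 TPM in BALB/cJ and 7.98 and 7.62 TPM in C57BL/6J and stayed under the TPM minimum. Of the LXR and efflux list (10 genes), which sheds cholesterol from macrophages, 3 genes were called lower in A/J in each comparison, Apoe and Abca1 among them. Of all genes tested 2.89% were called lower against BALB/cJ and 3.32% against C57BL/6J. Between BALB/cJ and C57BL/6J BMDMs 0 of 26 members were called by edgeR or DESeq2 beside 4.55% of all genes, and 9 had an unadjusted p under 0.05.

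With KLA the strains' members responded by different amounts. In the test of whether the response differed among the 3 inbred strains 6 of 27 members passed, beside 10.3% of all genes. By edgeR or DESeq2 0 were called beside 2.62%, and 10 had an unadjusted p under 0.05. Without A/J PBS replicate 1 or 2 the number that passed at any fold was 3. KLA and PBS libraries of a strain also differed in scale. The median log2 ratio of TPM over all genes tested was −0.275 in A/J, −0.272 in BALB/cJ, −0.23 in C57BL/6J and −0.27 in CB6F1/J, so the fitted differences are relative to that shift.

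Hmgcs1 was at 45.3 and 44.8 TPM in A/J after KLA, 147 and 135 TPM in BALB/cJ and 117 and 117 TPM in C57BL/6J. Both A/J libraries lay below their PBS libraries and those of the other strains lay above theirs. The fitted response was -0.17 ± 0.07, adjusted p = 0.0492, in A/J, 0.64 ± 0.10, adjusted p = 0.000329, in BALB/cJ and 0.52 ± 0.09, adjusted p = 4.56e-05, in C57BL/6J. A/J responded less than BALB/cJ and C57BL/6J by log2 differences of -0.86 and -0.72, adjusted p = 0.000802.

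Cyp51 showed the same split, at 16.4 and 16.4 TPM in A/J, 38.7 and 37.1 TPM in BALB/cJ and 42.7 and 46.4 TPM in C57BL/6J after KLA. Its A/J response lay below those of BALB/cJ and C57BL/6J by -0.75 and -0.70, adjusted p = 0.00057. The same pair of differences was -0.61 and -0.60, adjusted p = 0.00387, for Msmo1, -0.78 and -0.91, adjusted p = 0.0115, for Hsd17b7, -0.71 and -0.54, adjusted p = 0.0121, for Sc5d and -0.70 and -0.31, adjusted p = 0.0337, for Idi1.

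**Figure D3:**
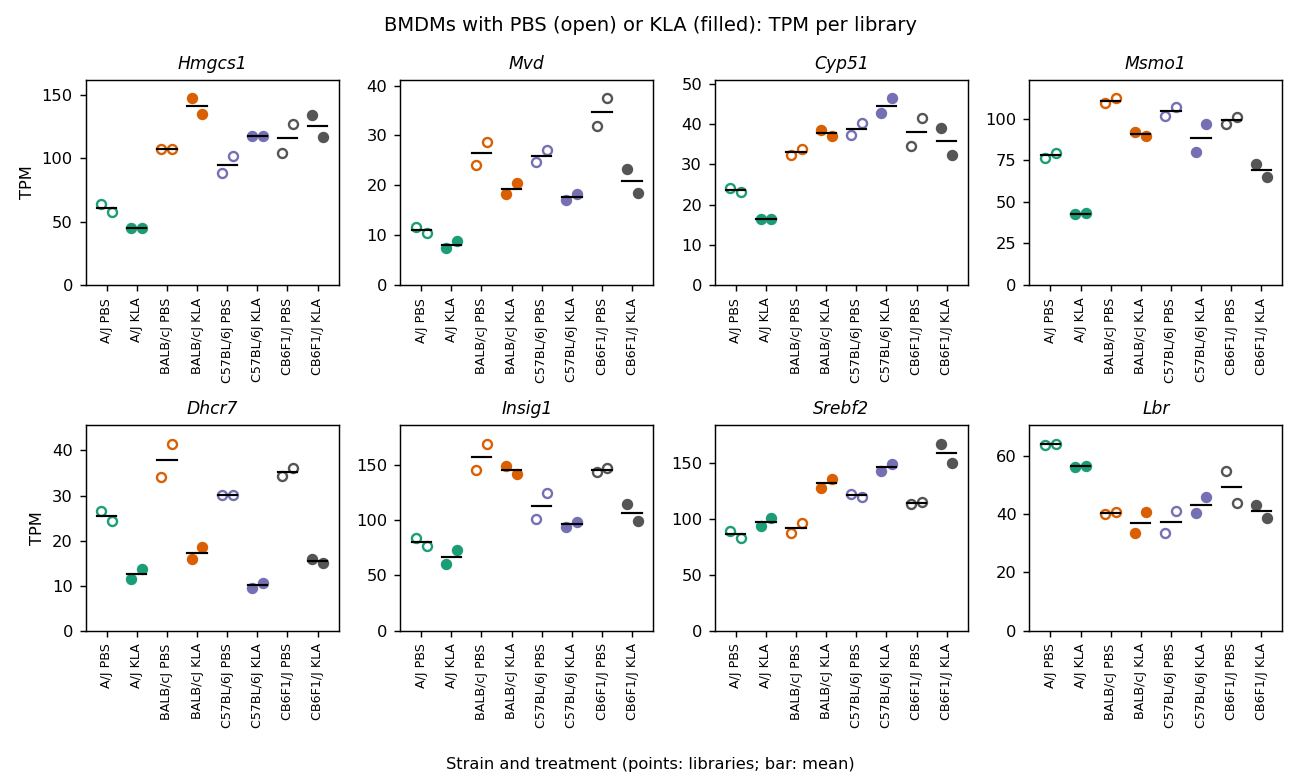
TPM (vertical axis, from 0) of 8 members in each BMDM library with PBS (open points) or KLA (filled points) in each of the 4 strains, with group means as bars. Hmgcs1 and Cyp51 are lower with KLA in A/J and higher in BALB/cJ and C57BL/6J, and Dhcr7 is lower with KLA in all 4 strains.

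Dhcr7, the reductase of the last step, fell in every strain. After KLA it was at 11.3 and 13.7 TPM in A/J against 26.6 and 24.4 TPM with PBS, and at 9.54 and 10.6 TPM in C57BL/6J against 30.1 and 30.1 TPM. The groups did not overlap in any strain, and the fitted change was -1.37 ± 0.10, adjusted p = 3.58e-09, in C57BL/6J, where it was the 1 of 26 members called beside 17.1% of all genes. It was -0.75 ± 0.10, adjusted p = 5.64e-05, in A/J, -0.88 ± 0.12, adjusted p = 0.000122, in BALB/cJ and -0.92 ± 0.08, adjusted p = 0.00019, in CB6F1/J.

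In BALB/cJ 1 of 27 members was called, beside 14.1% of all genes. Idi1 was at 10.6 and 10.5 TPM with KLA and 6.19 and 6.12 TPM with PBS and did not overlap (1.02 ± 0.12, adjusted p = 4.60e-05). By edgeR or DESeq2 0 of 23 members were called in A/J beside 12.1% of all genes, with 9 at an unadjusted p under 0.05, and 0 of 27 in CB6F1/J beside 12.3%, with 11. In all 4 strains the called share of members was below that of all genes.

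Srebf2 rose with KLA in every strain, by 0.44 ± 0.07, adjusted p = 0.000148, in A/J, 0.77 ± 0.10, adjusted p = 9.40e-05, in BALB/cJ, 0.48 ± 0.08, adjusted p = 4.67e-05, in C57BL/6J and 0.74 ± 0.08, adjusted p = 0.00066, in CB6F1/J. Its libraries were at 93.2 and 101 TPM in A/J, 127 and 136 TPM in BALB/cJ and 143 and 149 TPM in C57BL/6J after KLA. Sqle was at 47.0 and 51.5 TPM in BALB/cJ and 49.8 and 55.8 TPM in C57BL/6J, and its change did not pass in any strain.

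Insig1 was at 149 and 142 TPM in BALB/cJ and 93.8 and 98.4 TPM in C57BL/6J after KLA, Insig2 at 12.2 and 11.02 and 9.25 and 8.90 TPM, and Stard4 at 14.7 and 16.4 and 18.5 and 20.6 TPM. None of the 3 passed the test in any strain. Lss, the cyclase that forms lanosterol, fell in BALB/cJ (-0.67 ± 0.12, adjusted p = 0.000715), C57BL/6J (-0.85 ± 0.11, adjusted p = 5.23e-06) and CB6F1/J (-0.86 ± 0.12, adjusted p = 0.00137). Its exons overlap a gene on the opposite strand, and whether counting used strand is not stated in the methods.

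LPS in vivo moved the members of Kupffer cells in both directions. Insig1 and Hmgcs1 rose and Dhcr7, Lbr, Scap and Mbtps1 fell in all 3 strains tested. In BALB/cJ 6 of 18 tested members were called, 3 higher and 3 lower, beside 32.1% of all genes. In C57BL/6J 6 of 16 were called, 1 higher and 5 lower, beside 38.0%, and in CB6F1/J 5 of 17, 1 higher and 4 lower, beside 39.3%. These shares lay close to or below the background, and the medians were −0.436, −0.722 and −0.487 against −0.036, −0.035 and −0.023 for all genes.

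LPS libraries also differed in scale from untreated ones. The median log2 ratio of TPM over all genes tested was −0.487 in BALB/cJ, −0.586 in C57BL/6J and −0.761 in CB6F1/J, so a fitted rise can go with a small change in TPM. The LPS, AMLN and NSG comparisons share the untreated Kupffer cell libraries of each strain. Whether those untreated mice were fasted, as the LPS mice were, is not stated in the labels.

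Insig1 was at 27.5 and 26.7 TPM in untreated BALB/cJ and 51.4 and 50.4 TPM after LPS (1.36 ± 0.13, adjusted p = 0.000264). In C57BL/6J it was at 28.9 and 27.7 TPM and then 37.3 and 40.9 TPM (1.03 ± 0.15, adjusted p = 0.00426), and in CB6F1/J at 27.5, 27.6, 27.2 and 29.2 TPM and then 45.0, 52.8, 49.8, 51.3 and 37.8 TPM (1.502 ± 0.09, adjusted p = 1.10e-08). Every LPS library lay above every untreated library of its strain.

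Hmgcs1 was at 9.73 and 11.1 TPM in untreated BALB/cJ and 18.4 and 16.6 TPM after LPS (1.21 ± 0.15, adjusted p = 0.000906). In C57BL/6J it was at 8.69 and 9.22 TPM and then 12.8 and 9.34 TPM (0.85 ± 0.18, adjusted p = 0.0134). In CB6F1/J it was at 10.1, 10.6, 8.91 and 8.09 TPM and then 9.29, 9.27, 10.8, 10.9 and 10.2 TPM, where the groups overlapped in TPM although the fitted difference was 0.84 ± 0.10, adjusted p = 6.61e-06. Srebf2 was likewise higher on the fitted scale, by 0.51 ± 0.13, adjusted p = 0.0204, in C57BL/6J and 0.54 ± 0.11, adjusted p = 0.000577, in CB6F1/J, but its log2 ratio of mean TPM was −0.048 and −0.205, so its direction flips with the scale. In BALB/cJ it was at 41.4 and 27.9 TPM and then 44.9 and 36.3 TPM (0.68 ± 0.22, adjusted p = 0.0343).

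Dhcr7 was at 19.5 and 16.1 TPM in untreated BALB/cJ and 3.36 and 2.41 TPM after LPS (-2.13 ± 0.23, adjusted p = 0.00047). It was at 14.8 and 15.5 TPM and then 4.68 and 2.53 TPM in C57BL/6J (-1.52 ± 0.29, adjusted p = 0.00884) and at 14.8, 13.7, 13.9 and 15.0 TPM and then 2.34, 2.72, 2.97, 1.91 and 1.70 TPM in CB6F1/J (-1.88 ± 0.15, adjusted p = 1.74e-07). No library overlapped. Dhcr7 was thus lower after LPS in Kupffer cells, where fasting may differ together with LPS, and after KLA in BMDMs.

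Transcripts of the genes that release SREBP2 fell. Scap was at 37.3 and 33.9 TPM and then 13.7 and 11.3 TPM in BALB/cJ (-1.05 ± 0.15, adjusted p = 0.00136) and at 33.0, 33.7, 34.7 and 34.4 TPM and then 8.89, 8.72, 8.61, 8.30 and 8.54 TPM in CB6F1/J (-1.24 ± 0.07, adjusted p = 4.67e-09). Mbtps1 was at 30.6 and 29.4 TPM and then 7.80 and 7.43 TPM in C57BL/6J (-1.42 ± 0.14, adjusted p = 0.00125) and changed by -1.30 ± 0.07, adjusted p = 2.29e-09, in CB6F1/J. The groups did not overlap. Mbtps2 fell by less than 2-fold in all 3 strains, and its exons overlap those of Yy2 on the same strand.

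Lbr was at 51.6 and 46.5 TPM and then 14.8 and 16.2 TPM in C57BL/6J (-1.101 ± 0.15, adjusted p = 0.00356) and changed by -1.11 ± 0.08, adjusted p = 4.63e-08, in CB6F1/J. In C57BL/6J Acly (-1.06 ± 0.14, adjusted p = 0.00336) and Sc5d (-1.19 ± 0.26, adjusted p = 0.0131) were called lower too. Tm7sf2 was called lower in BALB/cJ (-1.11 ± 0.33, adjusted p = 0.0251). Without untreated replicate 2 the C57BL/6J count was 3.

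Msmo1, the methyl oxidase after Cyp51, was at 11.8 and 9.79 TPM and then 20.8 and 13.9 TPM in BALB/cJ (1.15 ± 0.24, adjusted p = 0.00655). It was at 10.3 and 9.09 TPM and then 6.36 and 3.58 TPM in C57BL/6J (-0.42 ± 0.31, adjusted p = 0.291), lower in TPM. The test of whether the LPS response differed between BALB/cJ and C57BL/6J called 0 of 18 members by edgeR and 1 by DESeq2, with 2 at an unadjusted p under 0.05, beside 0.11% of all genes.

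Insig2 was at 13.0 and 15.8 TPM and then 8.34 and 7.73 TPM in BALB/cJ (-0.38 ± 0.18, adjusted p = 0.115) and fell in C57BL/6J (-0.60 ± 0.17, adjusted p = 0.028) and CB6F1/J (-0.70 ± 0.15, adjusted p = 0.00113). Cyp51, Sqle, Stard4 and Idi1 were under the TPM minimum in all 3 strains. In untreated and then LPS libraries of BALB/cJ, Cyp51 was at 3.94 and 3.19 and 3.48 and 2.81 TPM, Sqle at 2.97 and 2.00 and 0.927 and 2.38 TPM, Stard4 at 3.55 and 2.73 and 3.00 and 2.55 TPM, and Idi1 at 0.144 and 0.311 and 0.166 and 0.363 TPM.

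In C57BL/6J the same 4 genes ran lower after LPS in most libraries, Cyp51 at 3.49 and 2.35 and then 1.88 and 1.41 TPM, Sqle at 2.16 and 1.81 and then 0.584 and 1.58 TPM, Stard4 at 3.31 and 3.35 and then 1.57 and 0.260 TPM, and Idi1 at 0 and 0.162 and then 0 and 0 TPM. Without the TPM minimum Acat2 was also higher after LPS and Mvk and Lss lower in all 3 strains, with log2 differences of 2.05, −2.21 and −3.09 in CB6F1/J. In CB6F1/J Stard4 (−1.99, adjusted p = 3.68e-07) and Hsd17b7 (−1.84, adjusted p = 0.000218) were then lower as well. So were Sc5d (−1.24, adjusted p = 3.78e-05) and Cyp51 (−0.89, adjusted p = 0.000222).

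**Figure D4:**
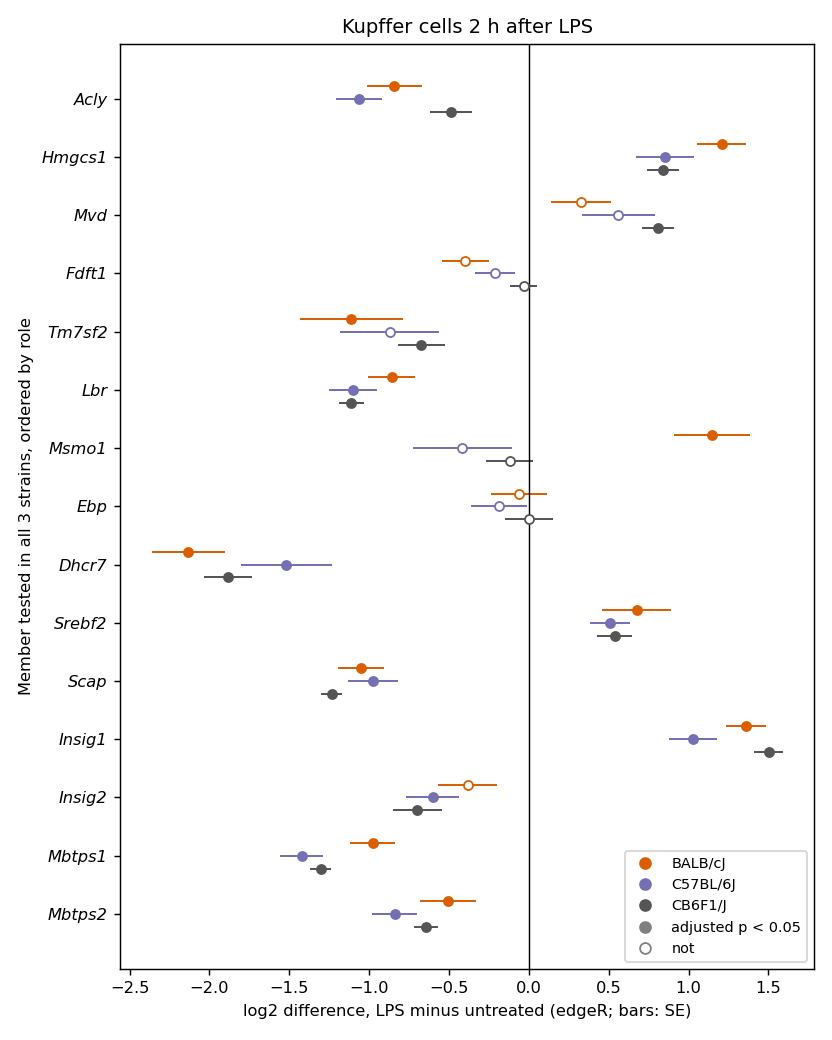
Log2 difference (LPS minus untreated, horizontal axis, bars are SE) of the members tested in all 3 strains, ordered by role. Filled points have an adjusted p under 0.05. Insig1 and Hmgcs1 lie above 0 and Dhcr7, Lbr, Scap and Mbtps1 below 0 in BALB/cJ, C57BL/6J and CB6F1/J, and Msmo1 lies above 0 in BALB/cJ alone.

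Neutrophil markers summed to 174.6 to 190.4 TPM after LPS in BALB/cJ against 86.5 to 90.67 TPM untreated, and their part in the members' changes was not tested. Kupffer cell markers were also lower after LPS, at 9082 to 12420 TPM over the LPS groups against 14440 to 18040 TPM in their untreated groups. Among related genes, Abcg1, an LXR target that exports cholesterol, and Scd2 were called lower in all 3 strains. Abcg1 changed by −2.75, −2.07 and −2.87 and Scd2 by −2.45, −2.36 and −2.30 in BALB/cJ, C57BL/6J and CB6F1/J. Nus1, of the prenyl branch, was called higher in all 3, by 1.47, 1.25 and 1.97.

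On the AMLN diet members were called against untreated Kupffer cells in C57BL/6J, where diet, time on it, age and colony differ together. The paper also describes recruited, monocyte-derived Kupffer cells in C57BL/6J mice on an AMLN diet. Their part in the members' differences was not tested. In C57BL/6J 3 of 18 tested members were called, 2 higher and 1 lower, beside 13.8% of all genes, and 9 passed at any fold beside 63.3%. The members' median was 0.061 against 0.01 for all genes, and the median log2 ratio of TPM over all genes was −0.211.

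Hmgcs1 was at 8.69 and 9.22 TPM in untreated C57BL/6J and 18.4, 13.2, 17.2 and 15.4 TPM on the diet (1.06 ± 0.14, adjusted p = 0.000234). Dhcr7 was at 14.8 and 15.5 TPM and then 26.9, 27.5, 28.9 and 26.9 TPM (1.09 ± 0.09, adjusted p = 1.65e-05). Lbr was at 51.6 and 46.5 TPM and then 18.2, 19.6, 23.4 and 18.9 TPM (-1.07 ± 0.11, adjusted p = 4.89e-05). None of these groups overlapped, with Hmgcs1 and Dhcr7 higher and Lbr lower on the diet.

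Srebf2 rose by less than 2-fold, from 29.8 and 30.9 TPM to 41.0, 44.2, 47.1 and 41.4 TPM (0.74 ± 0.09, adjusted p = 0.000117). Insig1 was at 28.9 and 27.7 TPM and then 18.7, 21.1, 24.5 and 17.6 TPM (-0.24 ± 0.13, adjusted p = 0.142), and Insig2 at 14.9 and 14.5 TPM and then 10.1, 11.4, 10.7 and 11.2 TPM (-0.21 ± 0.10, adjusted p = 0.0897). Both were lower on the diet in TPM without overlap, and neither passed the test.

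Cyp51 at 3.49 and 2.35 and then 6.85, 4.49, 7.68 and 5.97 TPM, Sqle at 2.16 and 1.81 and then 4.46, 3.46, 5.01 and 2.93 TPM, Stard4 at 3.31 and 3.35 and then 5.23, 4.45, 6.17 and 4.23 TPM and Idi1 at 0 and 0.162 and then 0.187, 0.233, 0.224 and 0.210 TPM were under the TPM minimum. All 4 were higher on the diet without overlap, but Idi1 was near 0 TPM in every library. The untreated C57BL/6J libraries held 10.66 and 9.09 M exon reads and the diet libraries 18.54 to 20.94 M. Of the SREBP1 and fatty acid list 4 of 7 tested genes were called higher, beside 8.02% of all genes, led by Scd2 and Scd1.

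In BALB/cJ 0 of 22 members were called by edgeR beside 3.42% of all genes, with 7 at an unadjusted p under 0.05, and 4 by DESeq2. The 3 diet libraries were far apart. Insig1 was at 42.6, 76.5 and 72.4 TPM against 27.5 and 26.7 TPM untreated (1.19 ± 0.28, adjusted p = 0.0868), and Hmgcs1 at 10.7, 29.5 and 29.3 TPM against 9.73 and 11.1 TPM (1.104 ± 0.44, adjusted p = 0.351).

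Stard4 was at 6.45, 18.1 and 25.3 TPM on the diet against 3.55 and 2.73 TPM (2.35 ± 0.58, adjusted p = 0.109), and Cyp51 at 4.76, 13.3 and 13.2 TPM against 3.94 and 3.19 TPM (1.49 ± 0.47, adjusted p = 0.205). In all 4 genes replicate 1 was the lowest diet library. Without it 5 members were called. Its immediate-early genes summed to 1322 TPM against 570.3 and 1001 TPM in the other diet libraries, and their part was not tested.

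**Figure D5:**
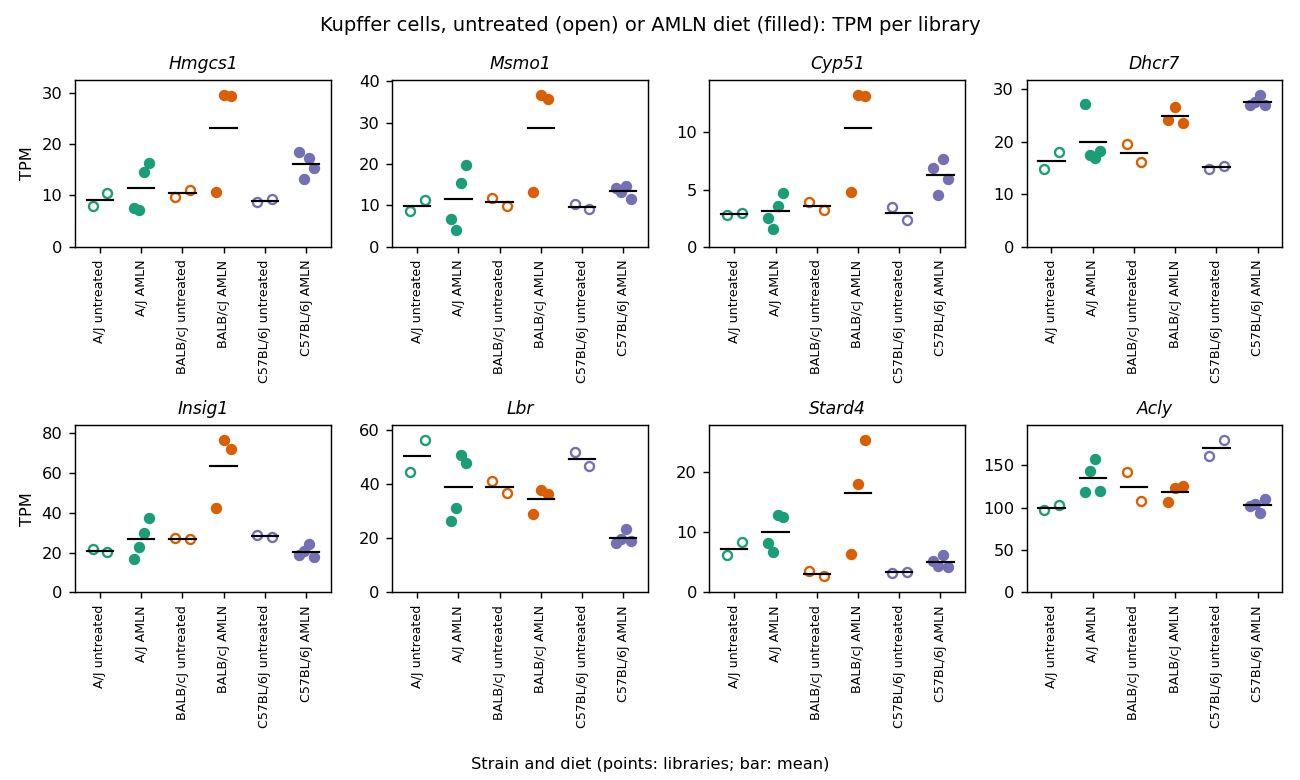
TPM (vertical axis, from 0) of 8 members in each Kupffer cell library, untreated (open points) or on the AMLN diet (filled points), in the 3 inbred strains, with group means as bars. BALB/cJ diet replicate 1 lies below the other diet libraries for Hmgcs1, Msmo1, Cyp51, Insig1 and Stard4, and Lbr is lower on the diet in C57BL/6J.

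In A/J 0 of 18 members were called by edgeR or DESeq2 beside 0.0504% of all genes, with 3 at an unadjusted p under 0.05. The diet libraries spread widely, with Hmgcs1 at 7.59, 7.21, 14.6 and 16.3 TPM against 7.93 and 10.4 TPM untreated. The test of whether the diet difference varied among strains called 1 of 22 members, Acly, beside 3.10% of all genes. Acly was at 97.1 and 102 TPM untreated and 118, 143, 157 and 119.6 TPM on the diet in A/J, and at 161 and 179 TPM and then 102, 104, 94.2 and 110.1 TPM in C57BL/6J. The diet groups lay above the untreated in A/J and below in C57BL/6J, and the differences were apart by 1.08 on the log2 scale (adjusted p = 0.0251). The call was lost with the replicate block (adjusted p = 0.0639) and without A/J untreated replicate 1 or 2, C57BL/6J untreated replicate 1 or 2, or C57BL/6J diet replicate 1 or 3 (adjusted p = 0.0547 to 0.118). DESeq2 called 3 members, Acly among them.

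Untreated Kupffer cells of the 3 strains gave no call among these genes. Between A/J and BALB/cJ, A/J and C57BL/6J, and BALB/cJ and C57BL/6J 0 of 18 members were called by edgeR or DESeq2 beside 3.17%, 4.63% and 5.93% of all genes, and 5, 3 and 4 had an unadjusted p under 0.05. Fdft1, squalene synthase, was at 53.9 and 66.3 TPM in A/J, 98.6 and 86.5 TPM in BALB/cJ and 71.4 and 66.3 TPM in C57BL/6J. BALB/cJ was highest and overlapped neither strain (-0.66 ± 0.12, adjusted p = 0.013, for A/J minus BALB/cJ). Its exons overlap those of Ctsb on the opposite strand.

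Marrow-derived Kupffer cells in NSG hosts showed few called members. Against untreated C57BL/6J 1 of 19 was called beside 8.51% of all genes, where origin, host and time differ together. Mvd was at 19.9 and 28.4 TPM untreated and 12.3, 12.3 and 11.1 TPM in NSG hosts (-1.04 ± 0.19, adjusted p = 0.00178), without overlap, and the count was 0 without NSG replicate 3 or untreated replicate 2. Insig1 was at 15.0, 17.5 and 19.5 TPM in NSG hosts (-0.73 ± 0.14, adjusted p = 0.00218), Srebf2 at 58.9, 59.6 and 48.1 TPM (0.85 ± 0.12, adjusted p = 0.000364) and Hmgcs1 at 13.1, 11.7 and 10.4 TPM (0.36 ± 0.16, adjusted p = 0.0986).

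Insig1 was below and Srebf2 above every untreated C57BL/6J library. Insig2 was at 14.7, 13.5 and 16.8 TPM (0.00 ± 0.15, adjusted p = 0.998), and Sqle at 9.07, 5.73 and 3.89, Cyp51 at 6.01, 4.88 and 5.48, Stard4 at 5.41, 6.28 and 6.18 and Idi1 at 0, 0.247 and 0.258 TPM were not tested. Against untreated BALB/cJ 0 of 19 were called by edgeR or DESeq2 beside 4.82%, with 3 at an unadjusted p under 0.05. Fdft1 had the smallest p (-0.84 ± 0.13, adjusted p = 0.00107). Between BALB/cJ and C57BL/6J cells in NSG hosts 0 of 20 were called by either tool beside 3.63%, with 2 at an unadjusted p under 0.05. The test of whether the strain difference depended on the host called 0 of 20 by either tool beside 1.14%, with 3.

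In stellate cells 0 of 18 members were called by edgeR or DESeq2 between A/J and BALB/cJ beside 8.27%, with 9 at an unadjusted p under 0.05, and 0 of 18 between A/J and C57BL/6J beside 6.74%, with 7. Between BALB/cJ and C57BL/6J 1 of 16 was called beside 9.32%. Mvk, mevalonate kinase, was at 12.3, 11.4, 12.2 and 13.0 TPM in BALB/cJ and 5.65, 4.17 and 5.11 TPM in C57BL/6J (1.33 ± 0.14, adjusted p = 0.00044), without overlap. Insig1 was at 10.0, 5.73, 7.38 and 4.63 TPM in BALB/cJ and 15.3, 13.8 and 11.9 TPM in C57BL/6J (-0.96 ± 0.22, adjusted p = 0.00914). The Kupffer cell markers given above differ between these strains, and their part was not tested.

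The other fixed genes in BALB/cJ and then C57BL/6J stellate cells were Insig2 at 29.9, 23.7, 22.4 and 21.6 and then 38.5, 40.5 and 27.6 TPM (-0.51 ± 0.14, adjusted p = 0.0186), and Srebf2 at 27.3, 28.8, 29.0 and 30.2 and then 23.3, 23.4 and 23.6 TPM (0.34 ± 0.07, adjusted p = 0.00766). Hmgcs1 was at 12.9, 12.3, 12.5 and 10.8 and then 13.7, 12.4 and 10.1 TPM (0.04 ± 0.11, adjusted p = 0.757), and Stard4 at 11.7, 9.52, 8.97 and 4.92 and then 19.4, 16.9 and 9.98 TPM (-0.78 ± 0.29, adjusted p = 0.0549). Insig2 and Stard4 overlapped between the strains, and Srebf2 did not. Cyp51 (at most 2.24 TPM), Sqle (at most 2.50 TPM) and Idi1 (at most 0.261 TPM) were not tested.

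In LSECs 0 of 18 members were called by edgeR or DESeq2 in any strain comparison (beside 2.54%, 3.99% and 3.81%), with 5, 10 and 11 at an unadjusted p under 0.05. Mvk was higher in BALB/cJ here as well, at 10.0, 12.6, 11.2 and 10.9 TPM against 5.06, 6.18, 5.48 and 6.04 TPM in C57BL/6J (0.98 ± 0.14, adjusted p = 0.00056), without overlap. Without the 3 libraries high in hepatocyte markers, left out after the data were seen, 1 member was called between BALB/cJ and C57BL/6J.

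In CB6F1/J cells reads that span a variant were assigned to the parental alleles, so both alleles were compared within each library. Insig1 had fewer BALB/cJ than C57BL/6J reads in every library. The BALB/cJ share in untreated Kupffer cells was 46.7, 41.3, 39.4 and 41.4% of 681 to 796 reads, with a mean of 42.2% ± 3.12 (SD, n = 4), and the log2 difference was −0.44 ± 0.08 (adjusted p = 0.0192). For the library at 46.7% the exact 95% binomial interval, 42.9 to 50.5%, held an equal share.

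After LPS the library at 49.2% had an interval of 46.5 to 52.0%, which also held an equal share. The Insig1 share after LPS was 43.3% ± 3.42 (SD, n = 5; −0.35 ± 0.08, adjusted p = 0.0394), in NSG hosts 40.5% ± 3.15 (SD, n = 3; −0.55 ± 0.10, adjusted p = 0.0813) and in BMDMs 47.6% ± 0.433 (SD, n = 2) with PBS and 44.8% ± 0.138 (SD, n = 2) with KLA. The BMDM differences were −0.12 ± 0.02 (adjusted p = 0.104) and −0.28 ± 0.02 (adjusted p = 0.00692). None reached 2-fold, and intervals cover counting error only. Where Insig1 passed at any fold, so did 27% of all genes tested in untreated Kupffer cells, 23.1% after LPS and 25.1% in BMDMs with KLA. With KLA, Cyp51 (−0.165 ± 0.026, adjusted p = 0.0273) and Sc5d (−0.142 ± 0.028, adjusted p = 0.0481) passed as well, also with fewer BALB/cJ reads. Over autosomal genes the quartiles of the BALB/cJ share in BMDMs with PBS were 47.3 and 51.4%, and Insig1 lay between them. In the other groups Insig1 lay below the lower quartile, 46.1 to 47.1%. Of the 3, 1, 4, 8 and 7 members that could be tested in these groups 0 were called by edgeR or DESeq2, beside 3.81%, 5.34%, 2.93%, 1.74% and 4.01% of all genes tested, and 1, 1, 2, 4 and 3 had an unadjusted p under 0.05.

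Nsdhl and Mbtps2 lie on the X chromosome, of which a male carries only the copy from the mother, here BALB/cJ. Their BALB/cJ share in untreated Kupffer cells was 64.9% ± 1.26 and 71.6% ± 1.87 (SD, n = 4), and the median share over 61 X-linked genes was 83.6%, with Xist at most 0.012 TPM. In NSG hosts the shares were 51.5% ± 4.91 for Nsdhl and 41.9% ± 9.79 for Mbtps2 (SD, n = 3), the median over 55 X-linked genes was 42.2%, and Xist was at 70.0 to 76.9 TPM. The NSG hybrid libraries thus went against the male pattern of the other hybrid groups, and their Insig1 share above rests on them. In untreated male cells a single BALB/cJ copy would give BALB/cJ reads only. The shares of 64.9%, 71.6% and 83.6% therefore mean that some X-linked reads were counted to the wrong allele. How far that error reaches the autosomal shares, Insig1 among them, was not tested.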

How the data were processed

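RNA-seq of poly(A) RNA had been made with dUTP libraries. Per the methods, the authors aligned reads with STAR to strain genomes, shifted them to mm10 coordinates with MMARGE and counted exon reads per gene with HOMER, and used DESeq2. The deposited tables hold raw counts and TPM. In the hybrids and parental BMDMs the deposited values are expected counts in steps of 0.5, and these were rounded here. Each hybrid library had a column for each parental genome, and the mean of both columns was used for its counts and TPM. These columns held perfectly matching reads, or all reads for the hybrid cells in NSG hosts. Allele counts were not averaged. Exon reads per library, in megareads, were 5.25 to 24.22 in Kupffer cells, 22.02 to 42.78 in BMDMs, 6.38 to 14.01 in LSECs, 8.1 to 12.69 in stellate cells and 9.19 to 21.45 in hepatocytes of the inbred strains.

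Groups were taken from the labels. Counts were tested with edgeR 4.0.16 (R 4.3.3; TMM, quasi-likelihood, Benjamini-Hochberg over all genes tested), for genes passing filterByExpr with a mean above 8 TPM in at least 1 group. The scripts were tested on simulated data. The members and lists were chosen with earlier results of these data known. Full values were given for up to 8 called members by size in each comparison, and for Hmgcs1, Idi1, Sqle, Cyp51, Insig1, Insig2, Srebf2 and Stard4 wherever a member was called. Others are given by count and range, and up to 2 called genes are named per other list. Alternatives were DESeq2 1.42.0, no TPM minimum, other fits, the replicate block and leaving out each library. Some genes are not reported here.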

Additional observations from a re-analysis of the deposited data

Results flagged for a closer look

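In groups of 4 to 10 libraries, 8 of 143 pairs of gene and group had 1 library far from the others, where chance alone gives about 1 in 20. Ggps1 was at 15.83 TPM in BALB/cJ stellate replicate 3 (others 14.24 to 14.51). In A/J LSEC replicate 4 Fdft1 was at 36.91 TPM (others 30.92 to 31.2), Lbr at 64.02 TPM (others 50.98 to 52.67) and Stard4 at 44.74 TPM (others 32.9 to 34.22). Insig2 was at 75.23 TPM in BALB/cJ LSEC replicate 1 (others 27.19 to 29.42). That library was high in hepatocyte markers, and hepatocyte libraries themselves held at most 52.19 TPM of Insig2. The part of hepatocyte RNA in this value was not tested. On the AMLN diet, Tm7sf2 was at 6.032 TPM in A/J replicate 3 (others 8.412 to 8.83), Dhcr7 at 27.16 TPM in A/J replicate 1 (others 16.89 to 18.16) and Ebp at 35.48 TPM in C57BL/6J replicate 2 (others 29.66 to 30.18).

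The response to KLA differed among the inbred strains for Hmgcs1 (−0.858), Cyp51 (−0.748), Msmo1 (−0.606), Hsd17b7 (−0.906), Sc5d (−0.707) and Idi1 (−0.698), each the largest log2 difference between a pair of strains, A/J minus another. The diet difference of Acly was apart by 1.084 between A/J and C57BL/6J. After LPS the ratio of mean TPM of Msmo1 was 0.549 in CB6F1/J and 1.61 in BALB/cJ, with every library on its side. Over all genes tested the median log2 ratio of TPM was −0.761 in CB6F1/J and −0.487 in BALB/cJ, so both ratios include that shift. The difference between CB6F1/J and BALB/cJ was not tested.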

How the results depend on the processing

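Of 214 counts of called members under other settings 195 stayed within 1.5 times the main count, and of 229 that left out 1 library 192 did. Main counts are in brackets. Without the TPM minimum members called were 1 for Kupffer cells A/J minus BALB/cJ (0), 1 for A/J minus C57BL/6J (0), 1 for BMDMs A/J minus BALB/cJ (2), 10 for LPS in CB6F1/J (5), 1 for AMLN in BALB/cJ (0), 5 for AMLN in C57BL/6J (3) and 5 for NSG against untreated C57BL/6J (1). DESeq2 gave 1 for the LPS interaction (0), 4 for AMLN in BALB/cJ (0) and 3 for the AMLN interaction (1). One fit of all 3 strains gave 1 for hepatocytes A/J minus C57BL/6J (2), and one of all groups 4 for AMLN in BALB/cJ (0). Without 3 LSEC libraries, chosen after seeing the data, LSECs BALB/cJ minus C57BL/6J gave 1 (0). In A/J alone Fdft1 in hepatocytes minus Kupffer cells was 0.199 (−0.51). The causes were not tested.

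Replicate numbers were not taken to pair the samples, since in 0 of 8 comparisons with 3 or more pairs did every pair's correlation exceed 0.1. That check left out 20 comparisons with 2 pairs. Among these, KLA against PBS had correlations of −0.37 in A/J, 0.159 in BALB/cJ, 0.047 in C57BL/6J and 0.186 in CB6F1/J. Whether those BMDM libraries pair by mouse was not tested, and the main tests were unpaired. With the replicate block the counts were 5 for hepatocytes A/J minus BALB/cJ (9), 1 for stellate cells A/J minus C57BL/6J (0), 1 and 3 for AMLN in A/J and BALB/cJ (0 and 0), 0 for the AMLN interaction (1) and 0 for NSG in C57BL/6J (1).

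Leaving out 1 library gave 0 to 1 in each Kupffer cell strain comparison, LSECs BALB/cJ minus C57BL/6J, stellate cells A/J minus BALB/cJ and A/J minus C57BL/6J, the LPS and KLA interactions and NSG in C57BL/6J. It gave 1 to 3 for BMDMs A/J minus BALB/cJ, 1 to 8, 0 to 2 and 2 to 6 for hepatocytes A/J minus BALB/cJ, A/J minus C57BL/6J and BALB/cJ minus C57BL/6J, 1 to 3 for stellate cells BALB/cJ minus C57BL/6J, 4 to 8, 3 to 6 and 5 to 6 for LPS in BALB/cJ, C57BL/6J and CB6F1/J, 1 to 2 for KLA in BALB/cJ, and 0 to 5, 2 to 3 and 0 to 3 for AMLN in BALB/cJ, C57BL/6J and the interaction. At any fold it gave 14 to 19 and 16 to 21 for BMDMs A/J minus BALB/cJ and minus C57BL/6J and 3 to 7 for the KLA interaction. The allele test in BMDMs could not be fitted with 1 library left. Low counts limit members under 8 TPM, such as Idi1 in liver cells.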
